A study of Mus musculus with 5 samples.

Results

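The Notch genes followed here are 10 genes of the deposited table of 17657 protein-coding genes, taken by symbol: the receptors Notch1, Notch2 and Notch3, the ligands Jag1, Jag2 and Dll1, the target genes Hes1, Hey1 and Heyl, and the glycosyltransferase Lfng. All 10 were listed. They were measured by RNA-seq in epidermal stem cells, the progenitor keratinocytes of skin, which were isolated from male C57BL/6 mice labelled 8 weeks and cultured in KGM2, a keratinocyte growth medium. Wild-type cells gave 3 libraries (WT1, WT2 and WT3), and cells of mice labelled Angptl4 knockout gave 2 (KO1 and KO2). The labels do not give the design of the knockout allele, nor whether the libraries within a group derive from different mice or dishes. The p-values therefore reflect only the spread among these libraries, which may be technical.

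Notch receptors are membrane proteins that are cut when a ligand on a neighbouring cell binds them. The cut frees an intracellular part that enters the nucleus, joins the DNA-binding protein RBPJ and a Mastermind coactivator, and switches on genes such as Hes1 and the Hey family. In the epidermis Notch activity is known for driving basal keratinocytes into the spinous layer and out of the stem cell state. Notch3 and Heyl are also well known in mural cells, the pericytes and smooth muscle cells of blood vessels.

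The libraries held 20283084 to 20773407 expected counts each, so a level of 1 CPM (counts scaled to library size) stands for about 20 counts. Angptl4, the targeted gene, was at 7.34, 6.09 and 4.34 TPM (a level scaled by transcript length and library) in WT1 to WT3, against 0.86 TPM in KO1 and 1.11 TPM in KO2. Its log2 CPM fell by 2.56 ± 0.32 (SE; adjusted p = 0.00458 in edgeR's quasi-likelihood test, the test used throughout). In limma-voom with a separate spread per group, set over all genes, Angptl4 did not pass (adjusted p = 0.127). This was the highest of its alternatives, which began at 5.68e-09 with DESeq2. Over all 12957 genes tested, 5286 (40.8%) had an adjusted p under 0.05, 2638 (20.4%) higher and 2648 (20.4%) lower in KO, and 66.4% had KO and WT libraries that did not overlap. The KO libraries differed far more from each other than the WT libraries did (biological coefficient of variation 28.9 against 5.21%). In bulk RNA, fewer cells of a type and less RNA per cell cannot be told apart.

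Of the Notch genes, the receptors Notch1 and Notch3 were higher in the KO cells, by 1.79-fold and 2.87-fold, and no gene of the group was lower. Notch2, the 3 ligands, Hes1 and Lfng did not pass the test. Hey1 and Heyl were almost silent in every library. The 2 genes called higher of 8 tested (25.0%) are to be read against 40.8% called over all genes, or 20.4% in the higher direction, so the count is near the background. The median log2 change of the 8 tested members was 0.13, against 0.02 over all genes. KO and WT libraries did not overlap in CPM for 4 of the 8 (Notch1, Notch3, Jag1 and Dll1), in each case with KO above WT. Over all genes tested 66.4% did not overlap, 32.5% with KO above WT, and nothing particular to the Notch genes is read from this count.

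**Figure D1:**
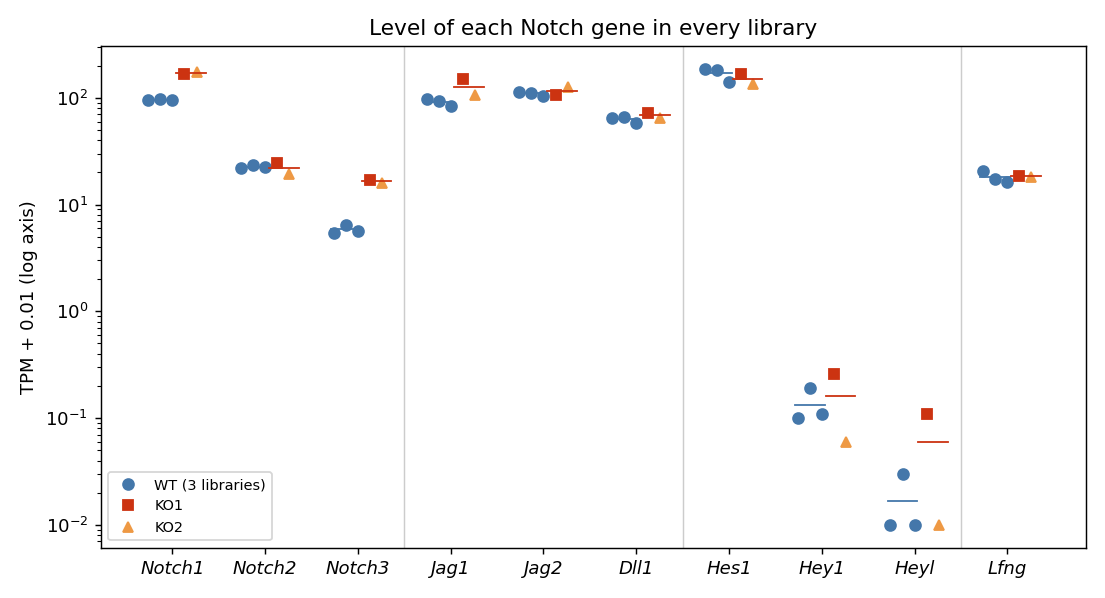
Level of each of the 10 Notch genes in every library, in TPM plus 0.01 on a log axis, with circles for the 3 WT libraries, a square for KO1, a triangle for KO2, and a short line for each group's mean. Notch1 and Notch3 have both KO libraries above all WT libraries, and Hey1 and Heyl lie at 0.25 TPM or less throughout.

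Notch1 (NCBI gene 18128, GRCm38.p6 chromosome 2, 26446612 to 26503822) encodes the main Notch receptor of the epidermis. It was at 95.5, 98.1 and 95.3 TPM in the WT libraries and at 166 and 175 TPM in KO1 and KO2. The WT libraries lay within 3 TPM of each other and both KO libraries stood far above them. The log2 change in CPM was 0.84 ± 0.08 (SE; 95% interval 0.64 to 1.05, edgeR adjusted p = 0.00285).

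Notch3 (NCBI gene 18131, chromosome 17, 32113411 to 32166896), a receptor that in skin is best known from the suprabasal layers, had the largest change of the 8 tested members. It was at 5.38, 6.48 and 5.65 TPM in the WT libraries and at 16.9 and 16.04 TPM in KO1 and KO2. Both KO libraries again stood clear of every WT library, and they lay close together. The log2 change in CPM was 1.52 ± 0.10 (SE; 95% interval 1.27 to 1.77, edgeR adjusted p = 0.00165), resting on 1478 WT and 2818 KO counts. In each of the 5 fits that left out 1 library, both Notch1 and Notch3 passed as higher. Notch3 lies 1.61 Mb from Angptl4 on the same chromosome. Of 27 tested genes between them 5 were higher and 3 lower in KO (29.6%, against 40.8% over all genes).

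Notch2 (NCBI gene 18129, chromosome 3, 98013538 to 98150367), the other receptor of basal keratinocytes, was at 22.2, 23.4 and 22.3 TPM in the WT libraries and at 24.3 and 19.3 TPM in KO1 and KO2. The WT values lay between the KO values. Its log2 change was -0.03 (95% interval -0.32 to 0.25, edgeR adjusted p = 0.837). The KO libraries went opposite ways, 0.13 in KO1 and -0.21 in KO2 against the WT mean on the log2 CPM scale, and without KO1 Notch2 passed as lower (log2 change -0.22, adjusted p = 0.011; its alternatives ran to 0.973).

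**Figure D2:**
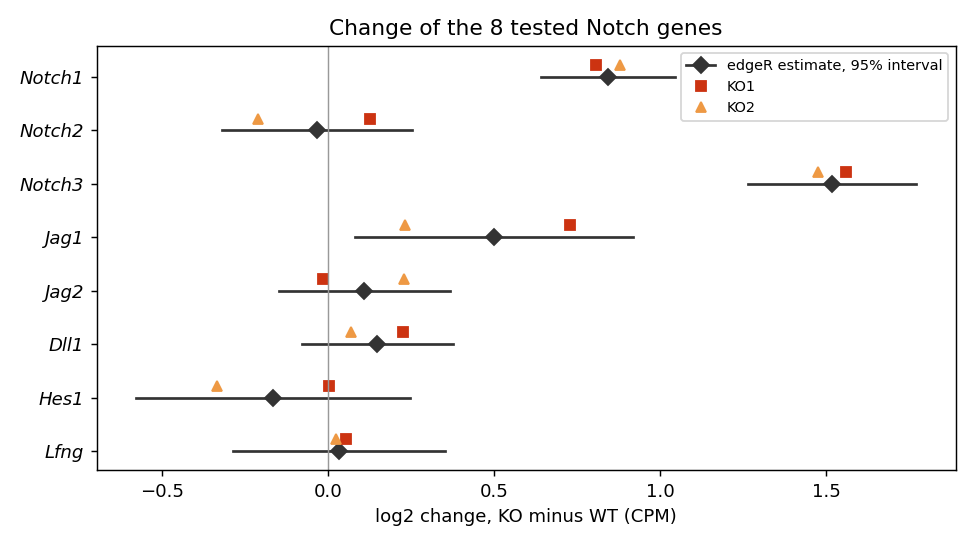
The log2 change in CPM of the 8 tested Notch genes (KO minus WT), with diamonds and bars for edgeR's estimate and 95% interval and a square and a triangle for KO1 and KO2 against the WT mean. Notch1 (0.84) and Notch3 (1.52) stand apart from 0, the interval of Jag1 runs from 0.08 to 0.92 and its KO libraries lie apart, and the other 5 intervals include 0.

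Because TPM is a level per transcript length, the receptors can be set side by side within a library. Their summed level was 123, 128 and 123 TPM in the WT libraries and 207 and 210 TPM in KO1 and KO2. Notch1 made up 76.7 to 77.6% of that sum in WT and 80.1 and 83.2% in KO1 and KO2. The share of Notch3 was 4.37, 5.06 and 4.58% in WT and 8.18 and 7.64% in KO1 and KO2, while that of Notch2 was 18.0 to 18.3% in WT and 11.7 and 9.18% in KO. For each receptor the KO shares lay outside the WT range. The shares are parts of the same sum and so do not move independently. The lower share of Notch2 does not mean a lower level, as its TPM overlapped between the groups. Notch1 remained the most abundant receptor in all 5 libraries, and Notch3 the least abundant of these 3.

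The promoter windows of the receptors that rose are shown because their levels moved in the same direction. They are from RefSeq (GRCm38.p6), run 5′ to 3′ on the gene's strand from 250 bases before to 50 bases after the start, and carry in capitals each match to the GC box letters GGGCGG on either strand. Notch1 is on the minus strand at chr2:26503773-26504072 and Notch3 on the minus strand at chr17:32166841-32167140.
Notch1: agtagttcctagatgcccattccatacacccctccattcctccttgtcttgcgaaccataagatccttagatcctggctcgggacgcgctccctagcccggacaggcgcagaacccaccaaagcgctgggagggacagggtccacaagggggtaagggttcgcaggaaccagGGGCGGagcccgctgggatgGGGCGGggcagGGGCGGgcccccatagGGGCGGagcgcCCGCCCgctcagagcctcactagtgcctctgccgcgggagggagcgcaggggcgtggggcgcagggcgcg
Notch3: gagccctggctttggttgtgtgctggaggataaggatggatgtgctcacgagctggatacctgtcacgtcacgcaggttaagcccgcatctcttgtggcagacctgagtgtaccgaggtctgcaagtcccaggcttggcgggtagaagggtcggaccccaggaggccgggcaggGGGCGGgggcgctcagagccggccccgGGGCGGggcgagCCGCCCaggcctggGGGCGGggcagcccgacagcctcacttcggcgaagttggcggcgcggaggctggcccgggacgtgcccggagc
The window of Notch1 held 5 matches, from 78 to 20 bases before the start, and that of Notch3 held 4, from 76 to 23 bases before it. Of 32817 windows of this length 35.6% held at least 1 match. GC content was 68.3% for Notch1 and 70.0% for Notch3, against a median of 52.7% over all windows. Neither trait was limited to the receptors that rose. GC content was 73.0% for Notch2, 86.0% for Jag2, 66.7% for Lfng, 55.7% for Jag1, and 62.7 and 56.3% for the windows of Dll1. Of GC box matches, Notch2 held 7, Jag2 held 5 with an overlapping pair, Lfng held 1, and Jag1 and both windows of Dll1 held 0.

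None of the 3 ligands passed the test. Jag1 (NCBI gene 16449, chromosome 2, 137081451 to 137116520), a ligand of the Jagged class, came closest. It was at 97.9, 93.7 and 83.1 TPM in the WT libraries and at 149 and 106 TPM in KO1 and KO2. Both KO values lay above every WT value, but KO2 only by a small margin. Its log2 change was 0.50 ± 0.17 (SE; 95% interval 0.08 to 0.92, edgeR adjusted p = 0.0619). It passed with DESeq2 (adjusted p = 0.0294), with total count scaling (adjusted p = 0.0489) and without KO2 (adjusted p = 0.000234, the lowest of its alternatives, which reached 0.199).

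Jag2 (NCBI gene 16450, chromosome 12, 112907803 to 112929812), the second Jagged ligand, was at 113, 112 and 104 TPM in the WT libraries and at 106 and 127 TPM in KO1 and KO2. Here KO2 was the higher KO library and KO1 lay within the WT range, the opposite order to Jag1. The log2 change was 0.11 (95% interval -0.15 to 0.37, edgeR adjusted p = 0.423). Without KO1 Jag2 passed as higher (0.22, adjusted p = 0.018; its alternatives ran to 0.93). Dll1 (NCBI gene 13388, chromosome 17, 15367354 to 15379475), the Delta-like ligand known from human epidermal stem cell clusters, was at 64.6, 65.6 and 58.0 TPM in the WT libraries and at 72.6 and 65.1 TPM in KO1 and KO2. The groups overlapped in TPM but not in CPM. Its log2 change in CPM was 0.15 (95% interval -0.08 to 0.38, edgeR adjusted p = 0.238), and it passed as higher without KO2 (0.23, adjusted p = 0.0273; its alternatives ran to 0.672).

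Per transcript length the ligands summed to 276, 271 and 245 TPM in the WT libraries and to 327 and 297 TPM in KO1 and KO2. Jag2 was the largest ligand in WT, at 41.0 to 42.5% of the sum. In KO1 Jag1 was the largest, at 45.4% against 32.3% for Jag2, and in KO2 Jag2 was, at 42.6% against 35.5% for Jag1. The share of Dll1 was 23.4 to 24.2% in WT and 22.2 and 21.9% in KO1 and KO2.

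**Figure D3:**
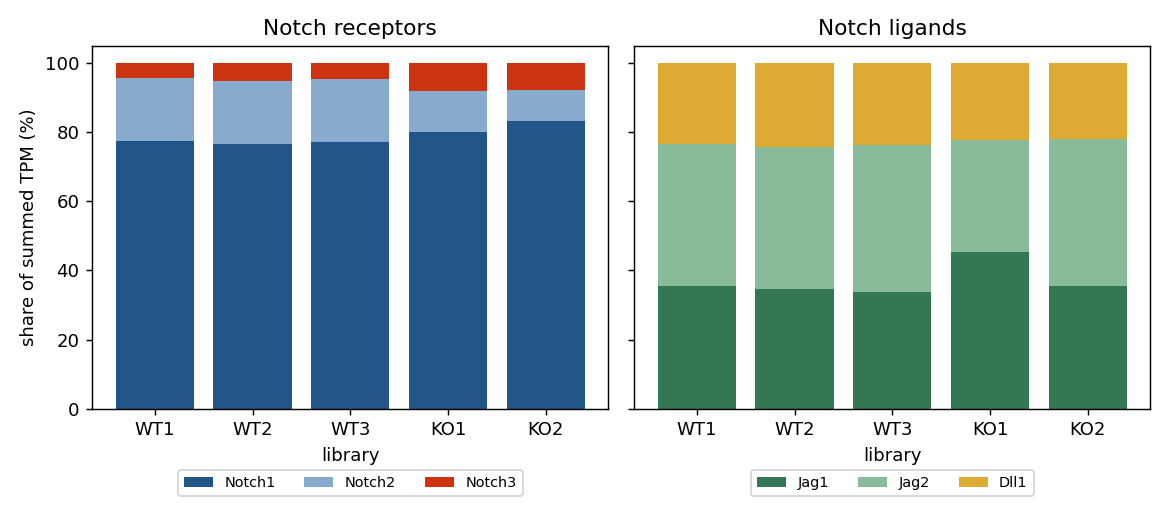
Share of the summed TPM taken by each Notch receptor (left) and each Notch ligand (right) in every library, in percent. The Notch3 share is 4.37 to 5.06% in the WT libraries and 7.64 and 8.18% in the KO libraries, and the largest ligand is Jag2 in every library except KO1, where it is Jag1.

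Among the target genes only Hes1 was expressed. Hes1 (NCBI gene 15205, chromosome 16, 30065357 to 30067796) encodes a repressor of transcription that is directly switched on by Notch and holds back differentiation in spinous cells. It was at 187, 183 and 142 TPM in the WT libraries and at 168 and 134 TPM in KO1 and KO2. WT3 lay below the other WT libraries and between the KO libraries, so the groups overlapped. The log2 change was -0.17 (95% interval -0.58 to 0.25, edgeR adjusted p = 0.45). The interval leaves room for a rise or a fall, but its upper end lies below the estimates of both Notch1 and Notch3. Whether the changes of these genes differ was not tested.

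Hey1 and Heyl, which encode related repressors, were not tested because their counts were too low. Hey1 had 2, 4 and 2 WT counts, then 5 in KO1 and 1 in KO2, or 0.25 TPM at most. Heyl had 0, 1 and 0 WT counts, then 5 in KO1 and 0 in KO2, or 0.10 TPM at most. At this depth a fall or a small rise was not detectable for either gene.

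Lfng (NCBI gene 16848, chromosome 5, 140607341 to 140615545) encodes Lunatic fringe, which adds sugars to Notch receptors and so alters which ligands they respond to. It was at 20.8, 17.5 and 16.4 TPM in the WT libraries and at 18.5 and 18.2 TPM in KO1 and KO2. Both KO values lay inside the WT range. The log2 change was 0.03 (95% interval -0.29 to 0.35, edgeR adjusted p = 0.855). Its RefSeq promoter window (GRCm38.p6, plus strand, chr5:140607091-140607390) is shown because, of the 8 windows matched for 7 of the 10 genes, it alone held the RBPJ core letters TGGGAA, in capitals here on either strand.
Lfng: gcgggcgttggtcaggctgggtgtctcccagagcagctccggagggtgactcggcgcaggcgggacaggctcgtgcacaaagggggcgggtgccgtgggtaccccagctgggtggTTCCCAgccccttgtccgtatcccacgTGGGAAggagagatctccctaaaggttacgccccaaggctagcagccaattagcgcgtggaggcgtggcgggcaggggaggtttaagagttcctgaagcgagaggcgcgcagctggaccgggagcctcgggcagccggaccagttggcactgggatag
The 2 matches begin 135 and 108 bases before the start, and the latter overlaps the letters CACGTG, an E-box bound by HES and HEY factors. Of all windows 25.6% held TGGGAA and 7.15% held CACGTG. No window was matched for Hes1, Hey1 or Heyl.

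The order of the levels per transcript length differed between the groups at the top. In WT it ran Hes1 (171 ± 25.2 TPM; SD, n = 3), Jag2, Notch1, Jag1, Dll1, Notch2, Lfng, Notch3, Hey1 and Heyl. Each gene there lay clear of the next one, except that Notch1 and Jag1 overlapped. In KO it began with Notch1 (170 ± 6.36 TPM; SD, n = 2), followed by Hes1, Jag1 and Jag2. Each of these 4 overlapped its neighbour in that order, and Jag2 lay clear of Dll1. From Dll1 down the order was that of WT, and Hey1 and Heyl overlapped.

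The rest of the pathway was followed in 61 further genes ordered by role, of which 51 had enough counts to be tested. In KO 15 were higher, 5 were lower and 31 did not pass, so 39.2% were called, against 40.8% over all genes, and the median log2 change was 0.21, against 0.02. KO and WT did not overlap for 31 of the 51, against 66.4% over all genes. Leaving out WT1, WT2 or WT3 cut the genes called over all genes from 5286 to 1957, 2282 and 2244. The pathway genes called higher fell to 3, 4 and 5 and those called lower to 0 each time. Leaving out KO1 gave 21 higher and 11 lower, and leaving out KO2 gave 25 and 12. Dtx3, Maml3 and Ncstn were higher in each of these 5 fits, and no other gene of the list was called in all 5. With a separate spread per group 8 were higher and 2 lower.

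Among 10 genes of receptor cleavage 3 were higher, 0 lower and 7 did not pass (30.0% called, against 40.8% over all genes). Ncstn, the nicastrin subunit of gamma-secretase, the enzyme that frees the Notch intracellular part, was at 81.4 ± 2.99 TPM (SD, n = 3) in WT and 112 ± 2.5 TPM (SD, n = 2) in KO. It rose by 0.48 ± 0.07 (SE) on the log2 scale (edgeR adjusted p = 0.00621). Aph1a, a further subunit, rose by 0.37 (65.6 to 83.5 TPM). Aph1c rose by 1.20 from 0.46 TPM, but Aph1b and Aph1c are close copies, so the split of reads between them is uncertain. Adam10, which makes the preceding cut at the cell surface, had a log2 change of -0.22 (95% interval -0.64 to 0.20) and did not pass.

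Of 13 tested genes of ligand endocytosis and receptor turnover, 5 were higher and 1 was lower (46.2% called, against 40.8% over all genes). Dtx3, a Deltex-family ubiquitin ligase, was at 26.7, 30.6 and 28.6 TPM in the WT libraries and at 75.8 and 82.0 TPM in KO1 and KO2. That rise of 2.83-fold (edgeR adjusted p = 0.00128) was close in size to that of Notch3. Mib2, a ubiquitin ligase that acts on Notch ligands, rose by 0.66 (13.6 to 21.4 TPM). The others were Neurl1a (0.57), Numbl (0.63) and Fbxw7 (0.35), the last a ubiquitin ligase subunit that marks the Notch intracellular part for destruction. Itch, a ubiquitin ligase of Notch receptors, fell by 0.23.

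In the nuclear complex, of 8 genes tested, 3 were higher, 2 lower and 3 did not pass (62.5% called, against 40.8% over all genes). Rbpj, the DNA-binding partner of every Notch receptor, was at 19.1, 18.0 and 17.7 TPM in the WT libraries and at 8.75 and 13.4 TPM in KO1 and KO2. Both KO libraries were below all WT libraries, KO1 more so. Rbpj fell by 0.60 ± 0.17 (SE) on the log2 scale (edgeR adjusted p = 0.04). Leaving out WT1, WT2 or WT3 ended this call (adjusted p = 0.129, 0.117 and 0.103), as did total count scaling (adjusted p = 0.0516). Its alternatives ran from 7.93e-05 to 0.129. The Mastermind coactivators Maml3 and Maml2 rose by 0.69 and 0.48, while Maml1, the most abundant of the 3, had a log2 change of -0.01 (95% interval -0.28 to 0.26). The histone acetyltransferase Kat2b rose by 0.75 (8.56 to 14.3 TPM), and Snw1, which binds the complex and also acts in splicing, fell by 0.33.

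Among 10 corepressor genes 2 were higher and 1 lower (30.0% called, against 40.8% over all genes). Cir1, a corepressor that binds RBPJ, rose by 0.54 (13.1 to 18.8 TPM), and Tle3, of the Groucho family that HES proteins recruit, by 0.37 (44.9 to 57.1 TPM). Ctbp1 fell by 0.25. Of the 3 tested genes of sugar transfer none passed. Pofut1, which adds the first fucose to Notch receptors, had a log2 change of -0.24 (edgeR adjusted p = 0.0513; its alternatives ran from 0.0113 to 0.341), and Poglut1, which adds glucose, one of -0.12.

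Of 9 further target genes 6 were tested, with 2 higher and 1 lower (50% called, against 40.8% over all genes). Hes6, a relative of Hes1 that is known to oppose it, rose by 0.55 (16.5 to 23.7 TPM). This rise is not read as Notch target activity. Hes7 rose by 1.67 but had only 13 counts in all WT and 28 in all KO libraries. Hes7 passed the count filter only through KO, so it could enter the test only as a rise. Ccnd1, which encodes cyclin D1, fell by 0.44 (219 to 159 TPM). Nrarp, a feedback inhibitor that Notch itself switches on, was at 44.4, 47.0 and 45.4 TPM in WT and at 52.2 and 50.4 TPM in KO1 and KO2. Both KO values were above WT, and its log2 change of 0.19 (95% interval 0.03 to 0.35) did not pass (edgeR adjusted p = 0.0645). Of the other receptors and ligands, Notch4, Dll3, Dll4, Dlk1 and Dner had too few counts to be tested, and Dlk2, a Delta-like homologue, had a log2 change of -0.48 that did not pass (edgeR adjusted p = 0.26).

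**Figure D4:**
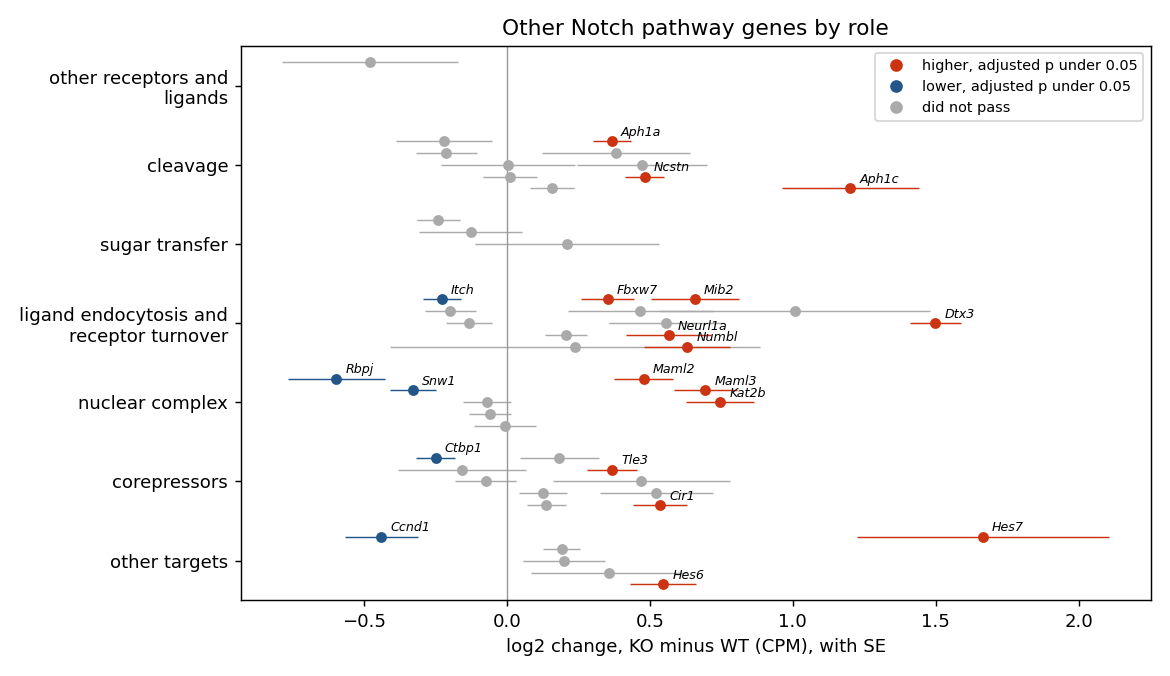
The log2 change in CPM (KO minus WT, bars are SE) of the 51 tested genes of the wider Notch pathway, grouped by role, in red or blue where higher or lower with adjusted p under 0.05 and grey where they did not pass. Dtx3 and Hes7 (1.67) lie farthest to the right, and Rbpj (-0.60) is the called gene farthest to the left. Hes7 passed the count filter only through KO.

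Genes of the spinous layer, the compartment that Notch is known to specify, were called in both directions. Of 15 tested, 6 were higher, 2 were lower and 7 did not pass, to be read against 20.4% of all genes higher and 20.4% lower. The share called was 53.3%, against 40.8% over all genes, and the median log2 change was 0.51, against 0.02. The higher ones were the spinous keratins Krt1 and Krt10, the desmosomal cadherin Dsg1a, the calmodulin-like Calml3, the galectin Lgals7 and the cell cycle inhibitor Cdkn1a. Among the lower was Tgm1, the transglutaminase that crosslinks the cornified envelope.

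Krt1 was at 5.99, 10.5 and 7.15 TPM in the WT libraries and at 267 and 29.7 TPM in KO1 and KO2. The log2 rise of 4.26 ± 0.91 (SE; edgeR adjusted p = 0.0177) was therefore uneven, 5.13 in KO1 and 1.96 in KO2. Krt10 was likewise at 12.7 TPM in KO1 and 2.84 TPM in KO2, against 0.84 to 1.49 TPM in WT. Notch1 and Notch3, in contrast, differed little between KO1 and KO2. Lgals7 rose by 1.06 (1909 to 3924 TPM) and Cdkn1a by 0.51 (637 to 893 TPM). Calml3 rose by 3.63, from 5 counts in all WT to 44 in all KO libraries, and passed the count filter only through KO. Calml3 could thus enter the test only as a rise. The count, share and median of the spinous list include Calml3, and no shift of the list is read from them. Tgm1 fell by 0.97. Leaving out WT1, WT2 or WT3 left 2 higher and 0 lower each time, while calls over all genes fell from 5286 to 1957, 2282 and 2244. Of the named genes Lgals7 passed in each of these fits, as did Calml3, which could enter them only as a rise.

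**Figure D5:**
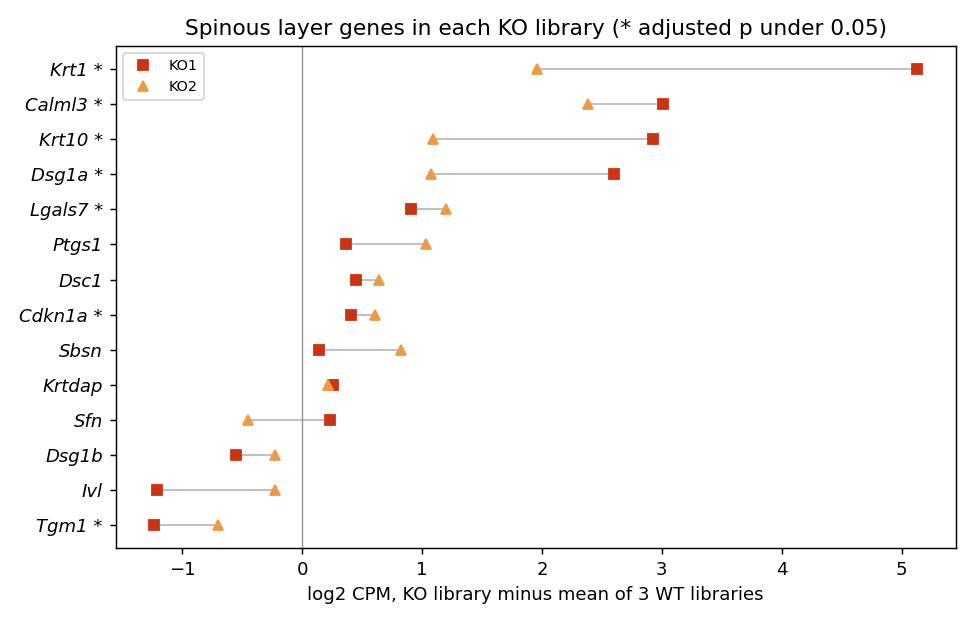
Difference in log2 CPM between each KO library and the mean of the 3 WT libraries for the tested spinous layer genes reported here, with a square for KO1 and a triangle for KO2, and an asterisk for adjusted p under 0.05. Krt1 lies at 5.13 in KO1 and 1.96 in KO2, whereas Tgm1 lies below 0 in both.

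Cell type markers were read beside these results. The basal keratins Krt14 and Krt5 were at 16275 to 19987 and 15052 to 21857 TPM, and all 11 basal keratinocyte markers were detected in both groups. Of these 4 were higher and 2 lower in KO, and the counts of each marker list are to be read against 20.4% of all genes higher and 20.4% lower. Mural cells are the cell type in which Notch3 is otherwise best known. Of 6 mural cell markers tested 5 were higher (83.3%, against 20.4% over all genes) and 0 lower, with a median log2 change of 2.31. Among them Cspg4 and Pdgfrb, with 14 and 7 counts over WT, passed the count filter only through the KO libraries. Such genes can enter the test only as a rise, so no shift of the list is read from the share or the median. The summed level of the 11 listed was 286 to 332 TPM in WT and 1852 and 698 TPM in KO1 and KO2. Most of that sum was Acta2, which encodes smooth muscle actin (219 to 251 TPM in WT, 1606 and 537 TPM in KO1 and KO2), and the adhesion molecule Mcam rose by 1.52. Cspg4 rose from 0.06 to 8.48 TPM and Pdgfrb, the defining receptor of pericytes, from 0.05 to 0.60 TPM. The defining pericyte markers Rgs5 and Abcc9 were at 0.10 TPM or less in every library, Higd1b was listed at 0 in all but KO1, and Heyl was near 0 as given above. Acta2 was far higher in KO1 than in KO2, while Notch3 was at 16.9 and 16.04 TPM there. The part of mural cells in the Notch3 result was not tested.

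Of the fibroblast markers 6 of 11 tested were higher (54.5%, against 20.4% over all genes) and 0 lower, with a median log2 change of 2.70. Among the higher, Postn and Col6a1, with 6 and 8 counts over WT, passed the count filter only through the KO libraries. As for the mural markers, no shift of the list is read from the share or the median. Summed levels of the list were 63.1 to 71.1 TPM in WT and 163 and 83.5 TPM in KO1 and KO2. Postn, which encodes the matrix protein periostin, was at 0.03 to 0.13 TPM in WT and at 10.5 and 4.29 TPM in KO1 and KO2, and Col6a1, a collagen VI chain, at 0.05 to 0.07 TPM in WT and at 4.05 and 1.61 TPM in KO1 and KO2. Both passed as higher, the only direction open to them under the count filter. The most abundant, Fbln1 and Sparc, did not pass (log2 changes 0.52 and 0.49). Without WT1, WT2 or WT3 the mural markers higher in KO became 2, 2 and 2 and the fibroblast markers 3, 4 and 3. Calls over all genes fell from 5286 to 1957, 2282 and 2244 there. Mcam passed in each of these fits, and Acta2 and Pdgfrb did not. Cspg4 passed too, but could enter these fits only as a rise. Endothelial markers, whose cells are known to use Notch1 and Dll4, summed to 14.6 to 16.1 TPM in WT and 10.8 and 13.7 TPM in KO1 and KO2, most of it Egfl7, with Pecam1 at 1.21 TPM or less. Of 4 tested 1 was higher (Tie1, a receptor of endothelial cells, log2 change 1.10, edgeR adjusted p = 0.0483) and 1 lower (Kdr, a receptor for VEGF, log2 change -1.54, edgeR adjusted p = 0.0293). Neither passed without WT1, WT2 or WT3, and Tie1 did not without KO1 either. Leukocyte markers summed to 41.6 to 50.5 TPM in WT and 66.5 and 57.7 TPM in KO1 and KO2, nearly all of it Cd68, which many cells express. Of 4 tested 1 was higher, Cd68 (log2 change 0.52, edgeR adjusted p = 0.0180), which did not pass without WT1 or WT3. Lyz2 did not pass (53 counts over WT, 3 over KO). Melanocyte and Schwann cell markers summed to 5.09 to 5.69 TPM in WT and 5.10 and 6.58 TPM in KO1 and KO2, with Mlana and Pmel the most abundant. The part of these cell types in the Notch results was not tested.

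For the 3 Notch genes with the smallest p, the tested genes nearest in pattern were found by the root mean square distance of log2 CPM, centred on the WT mean, over the 5 libraries. For Notch3 they were Tshz3, Tcn2 and Mapre3 (distances 0.03, 0.04 and 0.04), for Notch1 Dcaf6, Pkd1 and Golgb1 (0.02, 0.03 and 0.03), and for Jag1 Efcab15, Ext2 and Acpp (0.02, 0.05 and 0.05). The neighbours of Notch3 rose by 1.53, 1.47 and 1.58 and those of Notch1 by 0.84, 0.86 and 0.83 on the log2 scale. With 5 libraries and 40.8% of genes called, many genes share such patterns.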

How the data were processed

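RNA-seq of cultured mouse epidermal stem cells gave 2 Angptl4 knockout (KO) and 3 wild-type (WT) libraries, grouped by title. The authors deposited expected counts made by RSEM 1.3.1 for GRCm38.p6, per the submitters' processing notes; RSEM divides reads shared between genes by probability. The deposited TPM values were scaled by transcript length within each library by the authors, per the file headers. The deposited FPKM columns were not used here. No aligner or strand setting is given in the sources used here. Exons of Notch1, Notch3 and Dll1 overlap noncoding genes on the opposite strand in GENCODE M21, so reads of the 2 strands may not be told apart. For these 3 genes the deposited table lists the other strand than GENCODE does.

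Expected counts were rounded and tested over all genes with edgeR 4.0.16 in R 4.3.3 (filterByExpr by group, TMM factors 0.988 to 1.02, quasi-likelihood test, two-sided, Benjamini-Hochberg adjustment, threshold 0.05, no covariate). Intervals (95%) use the standard error derived from the test statistic. The script was tested on simulated data. Alternatives were DESeq2 1.42.0 and its size factors, total count scaling, limma-voom (limma 3.58.1) with 1 spread or a separate spread per group, no count filter, a stricter one (mean count of 50 or more), a replicate block, limma on log2(TPM + 1) and log2(TPM + 0.1) or with a mean TPM of at least 1, and each library left out. A lone KO library was taken to vary as the WT libraries do.

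The members, lists and tests were chosen with earlier results of these data known. Named genes are the 10 members, the 2 genes with the smallest p in each role of the wider pathway, the 4 in the spinous list, the 2 most abundant of each marker list, and the 3 nearest in pattern (prior count 2) to each of the 3 members with the smallest p. Angptl4 and the other genes named were chosen after their values were seen, as was the counting of the spinous and marker lists under each alternative. Promoter windows were matched by symbol to RefSeq. No library copied another: chi-square per degree of freedom was 3.39 to 6.30 within WT pairs and 106 for the KO pair. Some genes that the counts of the lists include are not reported here.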

Additional observations from a re-analysis of the deposited data

How the results depend on the processing

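Notch3 passed as higher under all 16 alternatives (log2 change 1.36 to 1.60, adjusted p 1.02e-25 to 0.0237), and Notch1 under all but the replicate block (log2 change 0.81 to 0.87, adjusted p up to 0.0572). Over the 8 tested members 116 of 128 comparisons kept direction and call, 1 lost a call, 6 gained one and 5 changed sign, and for the 60 other named genes 756 of 940 did, with 166 lost, 14 gained and 4 changed in sign. The precision for the tested members rests on 2 KO and 3 WT libraries, and the counts of Hey1 and Heyl were too low for a test.

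With the replicate number as a block, 1598 genes in all passed in place of 5286, with 1 Notch gene higher (Notch3), and 1 higher (Dtx3) and 0 lower among the other pathway genes. The labels do not say whether the numbers pair the libraries. The correlation of deviations (0.01 for number 1 and 0.07 for number 2) cannot settle it, because the deviations of 2 KO libraries mirror each other. The block also leaves fewer degrees of freedom. With a separate spread per group 3192 genes passed, with 8 pathway genes higher and 2 lower. The 5 lower pathway genes became 1 with total count scaling and 3 with the stricter filter; the cause was not tested. With 1 library left out, genes passing numbered 1957 to 8068, Notch genes higher 2 to 4 and lower 0 to 1 (Notch2, without KO1), and other pathway genes higher 3 to 25 and lower 0 to 12.

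With 1 library left out, the log2 change ranged from -0.22 to 0.14 for Notch2, from -0.0072 to 0.22 for Jag2, from -0.35 to 0.0033 for Hes1, from -0.45 to 0.14 for Poglut1, from -0.095 to 0.22 for Krt14, from -0.032 to 0.92 for Fbln1 and from -0.22 to 0.53 for Mlana, so that 1 KO library set the sign. The change of Lfng was -0.039 without WT3 and -0.033 with the replicate block; the cause was not tested.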
